A study of Mus musculus with 12 samples.

Results

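Aminoacyl-tRNA synthetases, the enzymes that join each amino acid to its transfer RNA, were followed in mouse T cells exposed to halofuginone. The members are 37 genes of 18193 measured: 19 cytosolic enzymes, 3 scaffold proteins of the multisynthetase complex (22 cytosolic genes together), and 15 mitochondrial enzymes, whose symbols end in ars2. They were listed by family and name, with earlier results of these data known, and all 37 had a probe set with a single gene symbol. Mars and Mars1 name 1 gene, which is called Mars1 here.

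The cells were CD4+ CD25- T cells of mice labelled C57B/6J, with no age or sex given. All groups were stimulated with antibodies to CD3 and CD28 and cultured with TGFb plus IL-6, the Th17 polarizing cytokines. Halofuginone (HF) at 10 nM was compared with 10 nM of MAZ1310, its inactive derivative, after 3 h or 6 h, with 3 arrays for each compound and time and 12 in all. The labels call the arrays biological replicates without naming animals or cultures, and a p-value here measures only how far these arrays spread, which may be technical. There was no untreated group, so each difference is HF against MAZ1310.

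Synthetases fall into 2 structural classes with unrelated catalytic folds. Most amino acids have 1 enzyme for the cytosol and another, made in the cytosol and imported, for mitochondria, while Gars and Kars each also give the mitochondrial form. Several cytosolic enzymes sit in a multisynthetase complex held together by the scaffolds Aimp1, Aimp2 and Eef1e1. HF is known as an inhibitor of the prolyl-tRNA synthetase activity of Eprs. Uncharged tRNA activates the kinase GCN2, which phosphorylates eIF2a and favours translation of the transcription factor ATF4, and several cytosolic synthetase genes are known ATF4 targets.

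Values are log2 of the deposited probe set intensity, and a difference is HF minus MAZ1310 on that scale, ± SE, with 3 arrays a group. The SE of a gene rests on its variance pooled over all groups, so it is the same at both times. Genes are said to rise or fall where limma's adjusted p (Benjamini-Hochberg over all 18193 genes) was under 0.05. Array medians lay between 6.60 and 6.68, and arrays within a group correlated at 0.992 to 0.997. Of 9 measured T cell markers, 0 were called at 3 h (1 with an unadjusted p under 0.05, limma) and 6 fell at 6 h, by 0.38 (Cd5) to 0.78 (Cd28), and their summed intensity was 20696 to 22319 with MAZ1310 and 15212 to 17813 with HF at 6 h. None of the 24 measured markers of B, CD8 T or NK, antigen presenting, myeloid or erythroid cells was called at either time, with 3 of them at an unadjusted p under 0.05 at each. In bulk RNA, fewer cells of a type and less RNA per cell cannot be told apart.

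Measures of RNA quality moved with the compound. The 3' minus 5' difference of the actin control probe sets, which grows as RNA is shortened, was at 3 h 1.03 ± 0.22 (SD, n = 3) for MAZ1310 and 1.25 ± 0.28 for HF, and at 6 h 0.86 ± 0.14 and 1.07 ± 0.26. It was higher with HF in 3 of 3 equally numbered pairs at each time. The excess was 0.17 to 0.30 after 3 h and 0.10 to 0.36 after 6 h. The arrays numbered 2 had the highest value of every group. The same difference for Gapdh was also higher with HF in 3 of 3 pairs at each time. Its excess was 0.11 to 0.41 after 3 h and 0.11 to 0.33 after 6 h. Synthetase calls are therefore also given from a fit with the actin difference and the replicate number as covariates. They are also given from the arrays without the 4 numbered 2. Both settings were chosen after the data were seen. Since the actin difference follows compound and replicate number, the first fit is less precise. Some calls were lost there at nearly the same size (Cars2 at 3 h, -0.38 and -0.36) and others at a smaller one (Iars at 3 h, 0.44 and 0.26). A call lost there is not shown to stem from RNA quality.

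HF raised 9 of the 22 cytosolic transcripts at both times. Of the 22 cytosolic genes, 9 rose and 1 fell at 3 h, where 2.83% of all genes rose and 6.66% fell. At 6 h 10 rose and 1 fell, against a background of 5.22% and 11.7%. The 9 that rose at 3 h (Aars, Cars, Lars, Yars, Sars, Nars, Tars, Gars and Iars) all rose at 6 h as well. Among the 15 mitochondrial genes, 1 rose and 2 fell at 3 h (6.67% and 13.3%), and 1 rose and 1 fell at 6 h (6.67% each). With so few genes, these counts are not far from the shares of all genes given above.

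The median difference of the 19 cytosolic enzymes was 0.34 at 3 h and 0.41 at 6 h, that of the mitochondrial enzymes -0.08 and 0.02, and that of all genes 0.03 and 0.02. Non-overlapping arrays gave a like split. All 3 HF arrays lay above all 3 MAZ1310 arrays for 11 of the 22 cytosolic genes at 3 h and 14 at 6 h, and below them for 4 and 5. Over all genes, 11.2% were wholly above and 11.6% wholly below at 3 h, and 16.4% and 20.4% at 6 h. For mitochondrial genes, 1 of 15 was wholly above and 3 wholly below at 3 h, and 1 and 4 at 6 h. Mitochondrial probe sets were dimmer than those of all cytosolic enzymes but Tarsl2, and folds of dim probe sets can be understated.

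With the actin difference and replicate number in the fit, 5 cytosolic genes still rose at 3 h (Cars, Lars, Yars, Aars and Sars) and 7 at 6 h (these with Nars and Tars), and 0 fell at either time. Over all genes that fit called 185 higher and 234 lower at 3 h and 327 and 583 at 6 h, where the fit without these terms called 514 and 1212, and 949 and 2136. Without the 4 arrays numbered 2, 7 cytosolic genes rose at 3 h and 9 at 6 h, and 0 fell. Of all 18193 genes, 279 were then called higher and 378 lower at 3 h, and 560 and 1177 at 6 h. The split of the whole table also moved with the scaling: under cyclic loess 723 genes rose and 1085 fell at 3 h.

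**Figure D1:**
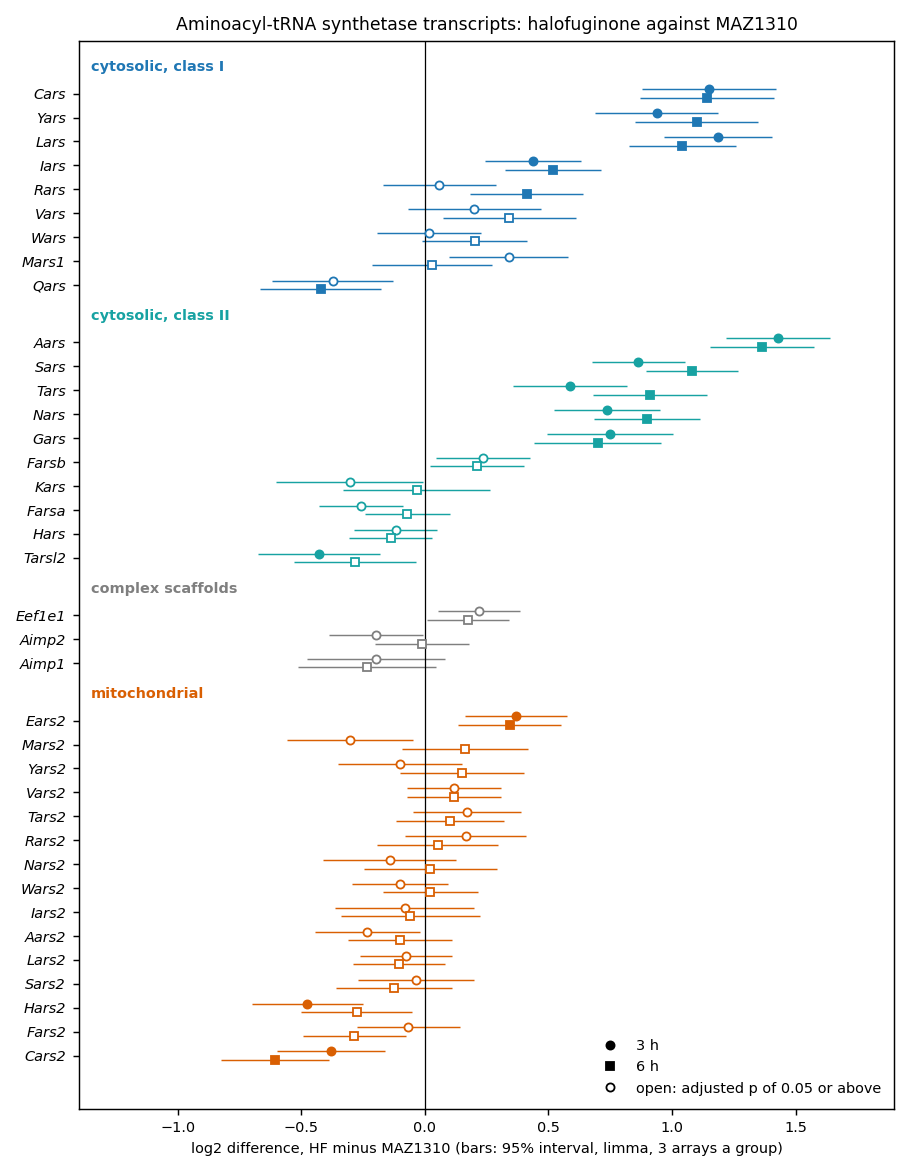
Difference between HF and MAZ1310 for each of the 37 genes, as log2 difference on the horizontal axis, with circles for 3 h, squares for 6 h, and bars for the 95% interval from limma (3 arrays a group). Filled symbols mark an adjusted p under 0.05. The 9 cytosolic genes from Aars (1.43 at 3 h) to Iars (0.44 at 3 h) stand to the right of 0 at both times, and most mitochondrial intervals cross 0.

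The sequence before the start site was read for the cytosolic genes that rose at both times, since these moved together. The motif TGATGNAA (TTNCATCA on the other strand), the form of element that ATF4 and C/EBP family dimers are known to bind, was searched on both strands of the RefSeq promoters of assembly GRCm38.p6, from 250 bases before to 50 bases after each start. It was the only motif searched. Promoters were in that table for 29 of the 37 members, and those of Cars, Lars, Rars, Vars, Wars, Hars, Nars and Hars2 were not searched. The 180 bases from 150 before the start to 30 after it are shown for the 6 searched genes that rose at both times. They read 5' to 3' on the gene's own strand, with motif matches in capitals.
Aars (chr8:111033692-111033871, plus strand): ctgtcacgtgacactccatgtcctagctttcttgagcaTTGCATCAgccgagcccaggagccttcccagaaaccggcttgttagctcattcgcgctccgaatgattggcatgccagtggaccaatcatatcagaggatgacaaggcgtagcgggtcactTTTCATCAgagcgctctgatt
Gars (chr6:55037851-55038030, plus strand): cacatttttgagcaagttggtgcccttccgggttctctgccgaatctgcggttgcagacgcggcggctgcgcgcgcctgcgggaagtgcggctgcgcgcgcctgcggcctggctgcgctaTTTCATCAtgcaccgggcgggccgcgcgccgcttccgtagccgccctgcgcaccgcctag
Tars (chr15:11399629-11399808, minus strand): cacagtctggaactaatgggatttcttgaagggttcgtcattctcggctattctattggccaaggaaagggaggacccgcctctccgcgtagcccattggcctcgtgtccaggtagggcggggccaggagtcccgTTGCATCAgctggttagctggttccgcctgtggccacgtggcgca
Iars (chr13:49681980-49682159, plus strand): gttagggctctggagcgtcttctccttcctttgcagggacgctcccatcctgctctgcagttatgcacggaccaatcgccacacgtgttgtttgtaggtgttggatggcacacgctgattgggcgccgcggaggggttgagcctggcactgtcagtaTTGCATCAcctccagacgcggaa
Yars (chr4:129189753-129189932, plus strand): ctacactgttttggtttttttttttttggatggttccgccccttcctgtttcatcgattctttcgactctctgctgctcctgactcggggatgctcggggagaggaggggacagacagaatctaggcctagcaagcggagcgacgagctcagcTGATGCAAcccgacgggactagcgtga
Sars (chr3:108445230-108445409, minus strand): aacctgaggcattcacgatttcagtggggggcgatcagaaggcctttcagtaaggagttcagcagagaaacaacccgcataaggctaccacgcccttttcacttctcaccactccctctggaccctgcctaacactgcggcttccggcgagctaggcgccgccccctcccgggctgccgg

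The match was TTGCATCA in Iars, Tars and the upstream part of Aars, the same 8 bases that Yars carries on the other strand as TGATGCAA. Gars and the second match of Aars read TTTCATCA. Matches began 112 bases before and 10 bases after the start in Aars, 30 before in Gars, 15 before in Tars, 8 after in Iars and 4 after in Yars, so that 5 of these 6 matches lay within 30 bases of the annotated start. The Sars window held no match, although Sars was among the genes with a difference above 1 at 6 h.

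Among cytosolic members whose promoter was searched, 5 of 6 that rose at both times held a match (83.3%) and 0 of the 9 others did. None of the 14 mitochondrial members searched held one. Over all 32851 promoters of that length, 1304 (3.97%) had a match, and over genes 1219 of 27025 (4.51%). These last shares include chr18, where member promoters were left out, so members and background were not treated alike. A match describes these letters in this window only; binding was not measured, and no test was made since the genes were sorted by their response.

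**Figure D2:**
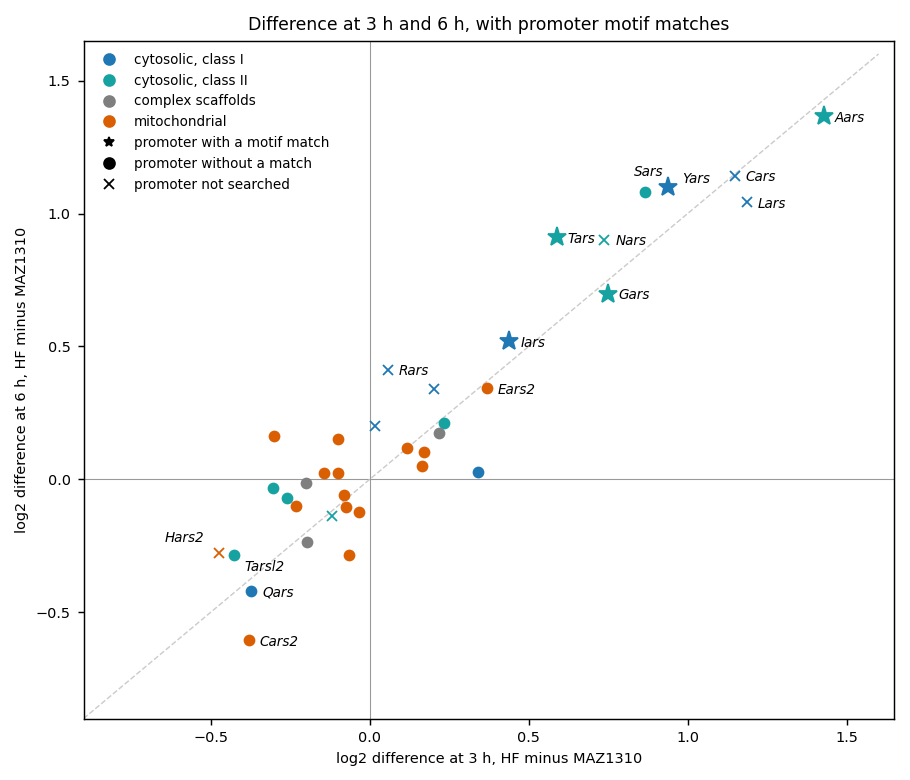
Log2 difference between HF and MAZ1310 at 3 h (horizontal) against that at 6 h (vertical) for the 37 genes, coloured by class and compartment, with stars for promoters that hold TGATGNAA, dots for promoters without it and crosses for promoters not searched. The dashed line marks equal differences at both times. The 5 starred genes (Aars, Yars, Tars, Gars and Iars) all lie in the upper right.

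Class II cytosolic enzymes gave 5 rises and 1 fall among 10 genes at 3 h, and 5 rises and 0 falls at 6 h. Over all genes, 2.83% rose and 6.66% fell at 3 h, and 5.22% and 11.7% at 6 h. Arrays are listed below in the order of replicates 1, 2 and 3. Aars, which charges tRNA with alanine and carries both motif matches shown above, had the largest difference of all members. Its log2 intensity was 10.60, 10.75 and 10.86 with MAZ1310 and 12.18, 12.31 and 12.01 with HF at 3 h. At 6 h it was 10.56, 10.73 and 10.57 with MAZ1310 and 12.04, 12.04 and 11.87 with HF. Every HF array lay more than 1 log2 unit above every MAZ1310 array. The difference was 1.43 ± 0.10 at 3 h (adjusted p = 4.35e-07, limma) and 1.37 ± 0.10 at 6 h (adjusted p = 2.21e-07), or 2.69-fold and 2.58-fold. A second probe set for Aars gave 1.37 and 1.35.

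Sars, the seryl-tRNA synthetase, which also starts the charging of selenocysteine tRNA, read 11.25, 11.34 and 11.58 with MAZ1310 and 12.25, 12.30 and 12.21 with HF at 3 h. At 6 h the values were 11.39, 11.36 and 11.47 against 12.46, 12.47 and 12.52. Groups did not overlap, and the 6 h HF arrays were the highest of the 12. The difference was 0.86 ± 0.09 at 3 h and 1.08 ± 0.09 at 6 h (adjusted p = 2.09e-05 and 6.68e-07, limma), and a second probe set gave 1.02 and 1.21.

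Nars, the asparaginyl-tRNA synthetase, stood at 11.96, 12.14 and 12.44 with MAZ1310 and at 12.88, 12.97 and 12.91 with HF at 3 h. Its 6 h values were 11.93, 11.89 and 11.97 with MAZ1310 and 12.83, 12.82 and 12.85 with HF. At 6 h each group spanned under 0.1 and the groups lay far apart, while at 3 h the MAZ1310 arrays were more widely spread. The difference was 0.74 ± 0.10 at 3 h (adjusted p = 0.000272, limma) and 0.90 ± 0.10 at 6 h (adjusted p = 1.45e-05). With the actin difference and replicate number in the fit, the 3 h value was 0.56 (adjusted p = 0.0998).

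Tars, the threonyl-tRNA synthetase, gave 11.69, 11.84 and 12.19 with MAZ1310 and 12.44, 12.62 and 12.42 with HF at 3 h. At 6 h MAZ1310 arrays read 11.42, 11.49 and 11.48 and HF arrays 12.39, 12.38 and 12.35. HF levels were close at both times, and the MAZ1310 level was the one that was lower at 6 h. The difference was 0.59 ± 0.11 at 3 h (adjusted p = 0.00256, limma) and 0.91 ± 0.11 at 6 h (adjusted p = 2.53e-05). At 3 h the call was lost with the actin and replicate terms (0.40, adjusted p = 0.346) and without the arrays numbered 2 (0.49, adjusted p = 0.109).

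Gars, the glycyl-tRNA synthetase of both compartments, read 11.19, 11.60 and 11.80 with MAZ1310 and 12.22, 12.27 and 12.33 with HF at 3 h. At 6 h it read 11.65, 11.67 and 11.80 against 12.40, 12.34 and 12.49. The groups were apart at both times, and replicate 1 of the 3 h MAZ1310 group was the lowest of the 12 arrays. The difference was 0.75 ± 0.12 at 3 h and 0.70 ± 0.12 at 6 h (adjusted p = 0.000972 and 0.000662, limma). The actin and replicate terms left 0.64 and 0.60 (adjusted p = 0.0834 and 0.0599).

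The other class II enzymes moved little or down. Tarsl2, a threonyl-tRNA synthetase-like gene, fell by 0.43 ± 0.12 at 3 h (adjusted p = 0.0285, limma), with MAZ1310 arrays at 6.76 to 6.78 and HF arrays at 6.07 to 6.68. At 6 h its difference was -0.28 ± 0.12 (adjusted p = 0.121). These values lie near the array medians, so a fold change may be understated. The 3 h call was lost when 1 array was left out in 5 of 12 fits: without MAZ1310 3 h replicate 1 (adjusted p = 0.0549), 2 (0.0692) or 3 (0.0554), or without HF 3 h replicate 2 (0.102) or 3 (0.131). It was also lost with the actin and replicate terms (adjusted p = 0.577) and without the arrays numbered 2 (0.270). Without HF 3 h replicate 1, Tarsl2 was called at 6 h (adjusted p = 0.0219).

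Farsa and Farsb, the alpha and beta subunits of phenylalanyl-tRNA synthetase, were called at neither time. Farsa differed by -0.26 ± 0.08 at 3 h (adjusted p = 0.0567, limma) and -0.07 ± 0.08 at 6 h, and Farsb by 0.23 ± 0.09 and 0.21 ± 0.09 (adjusted p = 0.128 and 0.135). Farsa was called at 3 h with a replicate block (adjusted p = 0.0407) and without MAZ1310 3 h replicate 1 (-0.33, adjusted p = 0.0130), but its 3 dimmer probe sets gave 0.07 to 0.15. Farsb was called under cyclic loess at 3 h (0.31, adjusted p = 0.0146) and at 6 h (0.23, adjusted p = 0.0386). Hars, the histidyl-tRNA synthetase, differed by -0.12 ± 0.08 and -0.14 ± 0.08. Kars, the lysyl-tRNA synthetase, differed by -0.30 ± 0.14 at 3 h (adjusted p = 0.215) and -0.03 ± 0.14 at 6 h, and was called at 3 h only without MAZ1310 3 h replicate 1 (-0.45, adjusted p = 0.0460).

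Class I cytosolic enzymes gave 4 rises and 0 falls among 9 genes at 3 h, and 5 rises and 1 fall at 6 h. The shares of all genes were 2.83% and 6.66% at 3 h, and 5.22% and 11.7% at 6 h. Cars, the cysteinyl-tRNA synthetase, read 9.21, 9.51 and 9.82 with MAZ1310 and 10.64, 10.59 and 10.76 with HF at 3 h. At 6 h the arrays read 9.07, 9.17 and 9.28 with MAZ1310 and 10.42, 10.15 and 10.37 with HF. HF arrays were above MAZ1310 arrays at both times by a margin larger than the spread within either group. The difference was 1.15 ± 0.13 at 3 h and 1.14 ± 0.13 at 6 h (adjusted p = 4.38e-05 and 1.39e-05, limma). A second, dimmer probe set gave 0.56 and 0.47, so the probe sets of Cars differ in size but not in direction.

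Lars, the leucyl-tRNA synthetase, read 10.38, 10.72 and 10.84 with MAZ1310 and 11.77, 11.94 and 11.79 with HF at 3 h. At 6 h it read 10.90, 10.93 and 10.93 against 11.93, 11.96 and 11.9994. The 6 h groups each spanned under 0.1. The difference was 1.19 ± 0.10 at 3 h and 1.04 ± 0.10 at 6 h (adjusted p = 4.12e-06 and 4.18e-06, limma). Lars was the complex enzyme with the largest difference at both times.

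Yars, the tyrosyl-tRNA synthetase, read 10.06, 10.27 and 10.65 with MAZ1310 and 11.22, 11.28 and 11.29 with HF at 3 h. Its 6 h arrays were at 10.03, 10.02 and 10.17 with MAZ1310 and 11.23, 11.11 and 11.18 with HF. HF arrays lay within 0.2 of each other over both times. The difference was 0.94 ± 0.12 at 3 h (adjusted p = 0.000133, limma) and 1.10 ± 0.12 at 6 h (adjusted p = 8.53e-06).

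Iars, the isoleucyl-tRNA synthetase, had the smallest differences among the 9 cytosolic genes that rose at both times. It read 11.99, 12.12 and 12.35 with MAZ1310 and 12.53, 12.64 and 12.61 with HF at 3 h, and 12.17, 12.14 and 12.06 against 12.62, 12.69 and 12.61 at 6 h. The groups did not overlap. The difference was 0.44 ± 0.09 at 3 h (adjusted p = 0.00599, limma) and 0.52 ± 0.09 at 6 h (adjusted p = 0.000820), and a second probe set gave 0.42 and 0.68. Both calls were lost with the actin and replicate terms (0.26 and 0.36, adjusted p = 0.522 and 0.246), and the 3 h call without the arrays numbered 2 (0.40, adjusted p = 0.135).

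Qars, the glutaminyl-tRNA synthetase, went the other way. It read 10.61, 10.74 and 11.08 with MAZ1310 and 10.50, 10.30 and 10.52 with HF at 3 h, and 10.81, 10.94 and 10.96 against 10.39, 10.42 and 10.64 at 6 h. All HF arrays were below all MAZ1310 arrays at each time. The difference was -0.37 ± 0.11 at 3 h (adjusted p = 0.0546, limma) and -0.42 ± 0.11 at 6 h (adjusted p = 0.0176), so only the 6 h difference was called. The 3 h difference was called with a replicate block (adjusted p = 0.0140) and without MAZ1310 3 h replicate 1 (-0.47, adjusted p = 0.0177).

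The 6 h call of Qars was lost without MAZ1310 6 h replicate 2 (adjusted p = 0.0649) or 3 (0.0655), or without HF 6 h replicate 1 (0.0820) or 2 (0.0704). It was also lost with the actin and replicate terms (adjusted p = 0.374) and without the arrays numbered 2 (0.197). Its 4 probe sets did not give the same size: the other 3 gave 0.05, -0.03 and -0.28 at 3 h and -0.19, -0.20 and -0.39 at 6 h.

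Rars, the arginyl-tRNA synthetase, rose at 6 h by 0.41 ± 0.11 (adjusted p = 0.0132, limma), with a 3 h difference of 0.06 ± 0.11 (adjusted p = 0.810). At 6 h MAZ1310 arrays lay at 11.38 to 11.54 and HF arrays at 11.71 to 12.01, with no overlap. The call was lost without MAZ1310 6 h replicate 2 (adjusted p = 0.0628), HF 6 h replicate 1 (0.0527) or HF 6 h replicate 3 (0.0704), with the actin and replicate terms (0.178), and without the arrays numbered 2 (0.0560).

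The remaining class I enzymes were not called. Vars, the valyl-tRNA synthetase, differed by 0.20 ± 0.13 at 3 h and 0.34 ± 0.13 at 6 h (adjusted p = 0.0831, limma). Its 6 h difference was called with a replicate block (0.0353), under cyclic loess (0.0363) and without MAZ1310 3 h replicate 1 (0.0222). Mars1, the methionyl-tRNA synthetase, differed by 0.34 ± 0.11 at 3 h (adjusted p = 0.0762) and 0.03 ± 0.11 at 6 h. It was called at 3 h with a replicate block (0.0295), under cyclic loess (0.41, adjusted p = 0.0109) and without MAZ1310 3 h replicate 3 (0.44, adjusted p = 0.0248). Wars, the tryptophanyl-tRNA synthetase, an interferon-inducible gene, differed by 0.02 ± 0.10 and 0.20 ± 0.10.

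**Figure D3:**
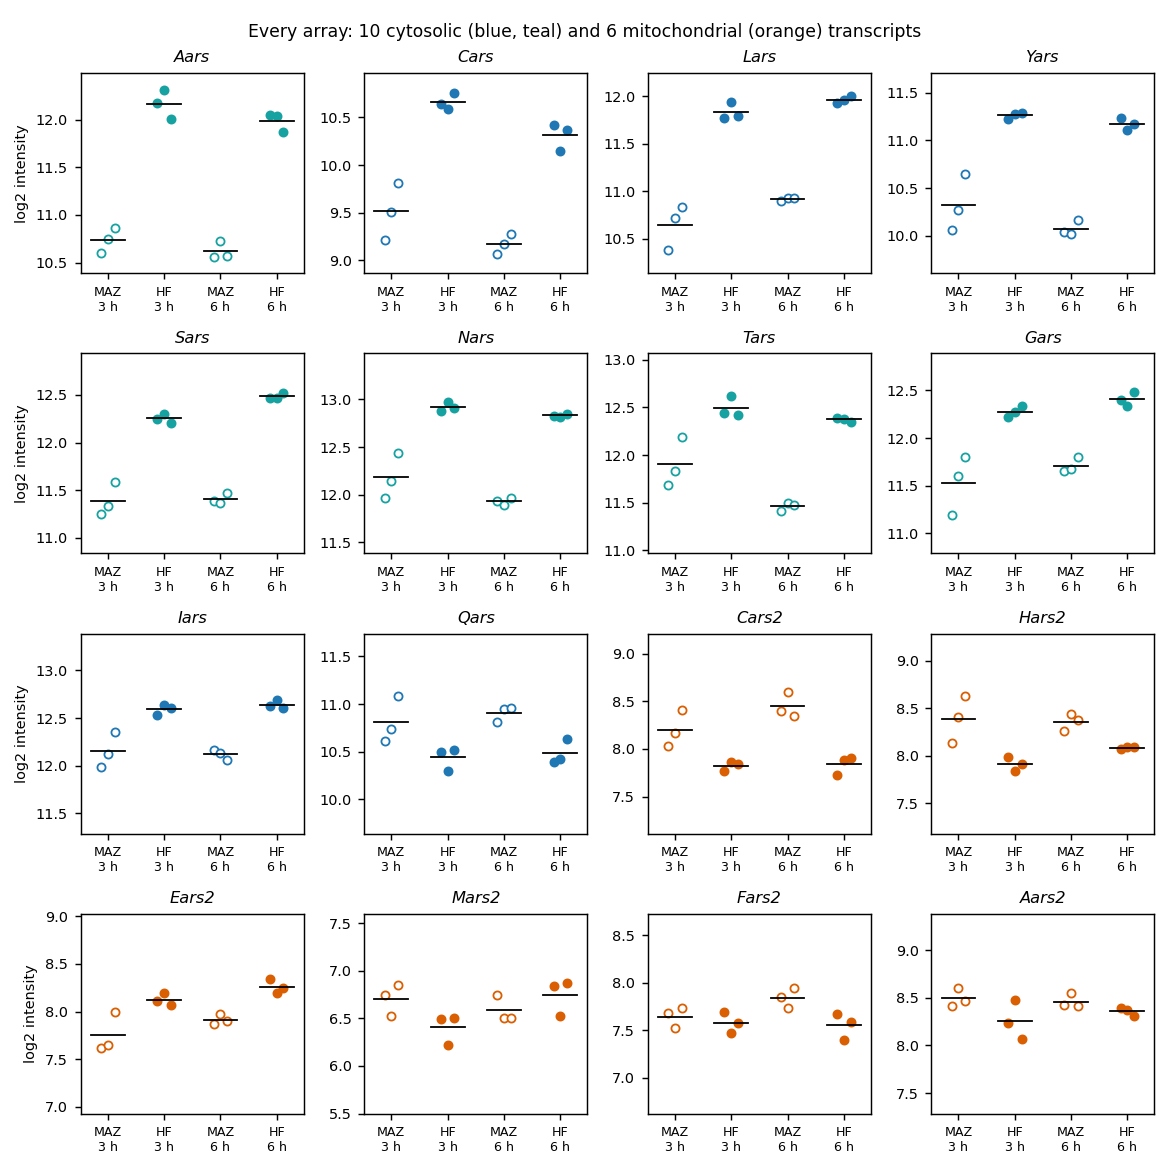
Log2 intensity (vertical axis, the same span in every panel) of each array for the 10 cytosolic and 6 mitochondrial genes of largest mean absolute difference, by group, with open circles for MAZ1310, filled circles for HF, replicates 1 to 3 from left to right and a line for the group mean. In the 9 panels from Aars to Iars every HF array stands above every MAZ1310 array of its time. The 3 h MAZ1310 arrays are the most widely spread in many panels.

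The spread of the 3 h MAZ1310 arrays was shared by many synthetases. Replicate 1 was the lowest array of that group for 18 of the 19 cytosolic enzymes and replicate 3 the highest for 16. The mean over the 19 enzymes ranged over 0.40 in that group, and over 0.05, 0.05 and 0.07 among the 3 h HF, 6 h MAZ1310 and 6 h HF arrays. The median SD of a cytosolic enzyme was 0.24 in that group, against 0.13 for all genes, and 0.09, 0.06 and 0.06 in the same 3 groups. The pooled SE does not follow this spread: for Tars it was 0.11 at 3 h and at 6 h, with SDs of 0.26 and 0.04 in the MAZ1310 arrays. For such enzymes the SE and adjusted p may be too small at 3 h and too large at 6 h. A separate variance for each group was not fitted. All 9 cytosolic rises at 3 h were called in each of the 12 fits that left out 1 array, and so were the same 9 at 6 h.

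None of the 3 scaffolds was called at either time by limma; 2 had an unadjusted p under 0.05 at 3 h and 1 did at 6 h. Aimp1, which is also the precursor of a secreted cytokine, differed by -0.20 ± 0.13 at 3 h and -0.23 ± 0.13 at 6 h. Aimp2 differed by -0.20 ± 0.09 (adjusted p = 0.204, limma) and -0.01 ± 0.09. Eef1e1 differed by 0.22 ± 0.08 (adjusted p = 0.0971) and 0.18 ± 0.08, and was called at 3 h under cyclic loess (0.28, adjusted p = 0.0173). Of the 6 members that are enzymes of the complex, Iars and Lars rose at both times, Rars rose and Qars fell at 6 h, and Kars and Mars1 were called at neither. Eprs, another enzyme of the complex, is no member and is described with the other charging genes. Among the 13 other cytosolic enzymes, 7 rose and 1 fell at 3 h and 7 rose at 6 h. Over all genes 2.83% rose and 6.66% fell at 3 h, and 5.22% and 11.7% at 6 h. The difference between these 2 sets of enzymes was not tested.

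Mitochondrial synthetases charge the tRNAs used to translate messages of the mitochondrial genome, which encodes respiratory chain subunits. Cars2, the mitochondrial cysteinyl enzyme, fell at both times, opposite to Cars. Its log2 intensity was 8.03, 8.17 and 8.41 with MAZ1310 and 7.76, 7.86 and 7.84 with HF at 3 h, and 8.39, 8.59 and 8.35 against 7.73, 7.88 and 7.91 at 6 h. HF arrays were below all MAZ1310 arrays at each time, with the wider gap at 6 h. The difference was -0.38 ± 0.10 at 3 h (adjusted p = 0.0274, limma) and -0.61 ± 0.10 at 6 h (adjusted p = 0.000580).

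At 6 h Cars2 was called in every fit that left out 1 array, with the actin and replicate terms, and without the arrays numbered 2. The 3 h call was lost without MAZ1310 3 h replicate 2 (adjusted p = 0.0555) or 3 (0.0946), without HF 3 h replicate 1 (0.0956), 2 (0.0589) or 3 (0.0661), with the actin and replicate terms (0.367), and without the arrays numbered 2 (0.137). Of its 2 dimmer probe sets, 1 gave -0.49 and -0.66 and the other 0.13 and 0.00.

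Hars2, the mitochondrial histidyl enzyme, read 8.13, 8.41 and 8.62 with MAZ1310 and 7.99, 7.84 and 7.91 with HF at 3 h, and 8.26, 8.44 and 8.38 against 8.07, 8.09 and 8.09 at 6 h. The arrays did not overlap at either time. The difference was -0.48 ± 0.11 at 3 h (adjusted p = 0.00898, limma) and -0.28 ± 0.11 at 6 h (adjusted p = 0.0941), so Hars2 fell at 3 h. The 6 h difference was called without MAZ1310 3 h replicate 1 (adjusted p = 0.0306) or 3 (0.0313). It was also called with averaged probe sets (0.0176) and with the probe set without a suffix (0.0111). That second probe set gave -0.33 and -0.38. The 3 h call was lost with the actin and replicate terms (adjusted p = 0.283) and without the arrays numbered 2 (0.163).

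Ears2, the mitochondrial glutamyl enzyme, was the only mitochondrial member that rose. It read 7.62, 7.65 and 7.99 with MAZ1310 and 8.11, 8.19 and 8.07 with HF at 3 h, and 7.87, 7.98 and 7.90 against 8.34, 8.19 and 8.25 at 6 h. HF arrays were above MAZ1310 arrays at both times, with a narrow gap at 3 h. The difference was 0.37 ± 0.10 at 3 h and 0.34 ± 0.10 at 6 h (adjusted p = 0.0246 and 0.0222, limma). Its 3 dimmer probe sets gave 0.04 to 0.30 at 3 h and 0.11 to 0.17 at 6 h.

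Neither Ears2 call was stable. At 3 h it was lost without MAZ1310 3 h replicate 1 (adjusted p = 0.0746) or 2 (0.0996) and without HF 3 h replicate 1 (0.0627) or 2 (0.0927). At 6 h it was lost without MAZ1310 6 h replicate 1 (0.0826) or 3 (0.0675) and without HF 6 h replicate 1 (0.101) or 3 (0.0562). The actin and replicate terms gave adjusted p = 0.535 and 0.530, and the arrays without those numbered 2 gave 0.312 and 0.0765.

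Mars2, the mitochondrial methionyl enzyme, read 6.75, 6.53 and 6.85 with MAZ1310 and 6.49, 6.22 and 6.50 with HF at 3 h, and 6.75, 6.50 and 6.50 against 6.84, 6.52 and 6.87 at 6 h. HF arrays were lower at 3 h, and at 6 h the groups overlapped. These values lie near the array medians. The difference was -0.30 ± 0.12 at 3 h (adjusted p = 0.144, limma) and 0.16 ± 0.12 at 6 h (adjusted p = 0.440), and with a replicate block the 3 h difference was called (adjusted p = 0.0291).

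Fars2, the mitochondrial phenylalanyl enzyme, read 7.68, 7.52 and 7.73 with MAZ1310 and 7.69, 7.47 and 7.58 with HF at 3 h, and 7.85, 7.73 and 7.95 against 7.67, 7.40 and 7.59 at 6 h. The groups overlapped at 3 h and not at 6 h. The difference was -0.07 ± 0.10 at 3 h and -0.29 ± 0.10 at 6 h (adjusted p = 0.0592, limma). At 6 h it was called with a replicate block (adjusted p = 0.0132) and without MAZ1310 3 h replicate 3 (0.0454). It was also called at 6 h with averaged probe sets (-0.51, adjusted p = 0.00727) and with the filter on dim genes (0.0392). A second, dim probe set gave -0.11 and -0.74.

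Aars2, the mitochondrial alanyl enzyme, read 8.41, 8.60 and 8.47 with MAZ1310 and 8.24, 8.48 and 8.07 with HF at 3 h, and 8.42, 8.55 and 8.41 against 8.40, 8.37 and 8.31 at 6 h. The groups overlapped at 3 h. The difference was -0.23 ± 0.10 (adjusted p = 0.179, limma) and -0.10 ± 0.10, and the 3 h difference was called without HF 3 h replicate 2 (-0.34, adjusted p = 0.0428).

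The other 9 mitochondrial enzymes were not called at either time, and each of their 18 differences lay between -0.14 and 0.17. Rars2 (arginine) differed by 0.17 at 3 h and 0.05 at 6 h, Tars2 (threonine) by 0.17 and 0.10, and Vars2 (valine) by 0.12 and 0.12. Nars2 (asparagine) gave -0.14 and 0.02, Yars2 (tyrosine) -0.10 and 0.15, and Wars2 (tryptophan) -0.10 and 0.02. Iars2 (isoleucine) gave -0.08 and -0.06, Lars2 (leucine) -0.08 and -0.11, and Sars2 (serine) -0.03 and -0.12. Their 95% intervals reached at most 0.41 in size, so changes smaller than this would be missed for some of them. Without the arrays numbered 2, 0 mitochondrial genes were called at 3 h and 1, Cars2, at 6 h, and the actin and replicate terms gave the same counts.

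Cytosolic and mitochondrial enzymes for the same amino acid could be set side by side in 15 pairs, with Farsa and Farsb both set against Fars2. The cytosolic difference exceeded the mitochondrial one in 13 of 15 pairs at 3 h and 14 of 15 at 6 h, with a median excess of 0.52 (range -0.19 to 1.66) and 0.58 (range -0.13 to 1.75). The widest pair was alanine at 3 h (Aars 1.43, Aars2 -0.23) and cysteine at 6 h (Cars 1.14, Cars2 -0.61). Exceptions were the pairs of Farsa and Rars at 3 h and that of Mars1 at 6 h. The median of the cytosolic enzymes stood above that of the mitochondrial ones by 0.42 at 3 h and 0.39 at 6 h. Means over the enzymes of each array use the same values again and add no separate evidence. The mean log2 intensity of the cytosolic enzymes minus that of the mitochondrial ones was 2.64 to 2.79 with MAZ1310 and 3.17 to 3.21 with HF at 3 h, and 2.53 to 2.64 and 3.08 to 3.10 at 6 h, without overlap. No test was made of these summaries, since the pairs share arrays and the members were chosen with results known. The mitochondrial probe sets were also the dimmer ones, with mean log2 intensity from 6.61 (Mars2) to 9.72 (Yars2). Cytosolic enzymes lay between 9.92 (Cars) and 12.47 (Nars), apart from Tarsl2 (6.65). Folds of dim probe sets can be understated, and the part of intensity in this excess was not tested.

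**Figure D4:**
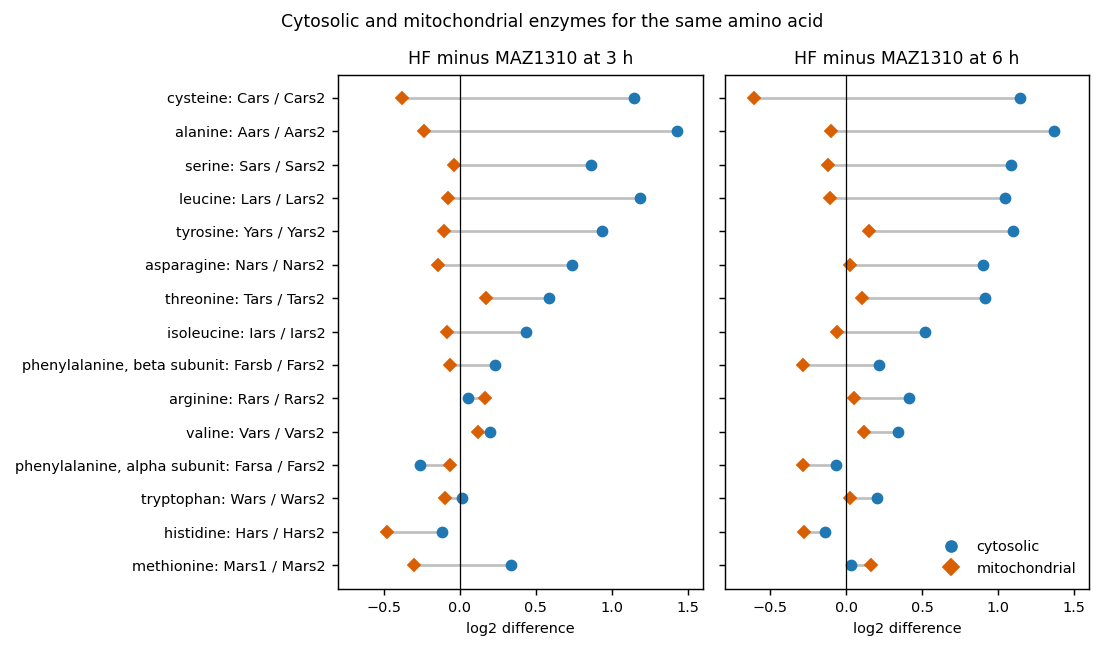
Log2 difference between HF and MAZ1310 (horizontal axis) at 3 h (left) and 6 h (right) for the 15 pairs of cytosolic (circles) and mitochondrial (diamonds) enzymes of one amino acid, ordered by the gap at 6 h. Circles lie to the right of diamonds in 13 pairs at 3 h and 14 at 6 h.

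A further 6 genes of tRNA charging were measured. Eprs, the glutamyl-prolyl-tRNA synthetase whose prolyl activity HF is known to block, read 11.39, 11.65 and 11.87 with MAZ1310 and 11.96, 12.13 and 12.08 with HF at 3 h, and 11.84, 11.79 and 11.76 against 12.54, 12.51 and 12.54 at 6 h. All HF arrays were higher at each time. The difference was 0.42 ± 0.10 at 3 h (adjusted p = 0.0169, limma) and 0.74 ± 0.10 at 6 h (adjusted p = 0.000116), so this complex enzyme rose at both times. The 3 h call was lost without HF 3 h replicate 2 (adjusted p = 0.0706) or 3 (0.0573) and without the arrays numbered 2 (0.217), and with the actin and replicate terms the values were 0.23 and 0.56 (adjusted p = 0.651 and 0.0643). Pars2, the mitochondrial prolyl enzyme, differed by -0.17 ± 0.08 at 3 h and fell by 0.39 ± 0.08 at 6 h (adjusted p = 0.00388), a call lost with the actin and replicate terms (0.0603) and without the arrays numbered 2 (0.0517). Qrsl1, Gatb, Gatc and Mtfmt, which finish mitochondrial glutaminyl and formylmethionyl tRNAs, were not called.

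A list of 21 measured genes of tRNA supply and use gave 1 rise and 4 falls at 3 h and 3 rises and 6 falls at 6 h, with a median difference of -0.06 and 0.01. As shares of the list these were 4.76% and 19.0% at 3 h, where 2.83% of all genes rose and 6.66% fell, and 14.3% and 28.6% at 6 h, where 5.22% rose and 11.7% fell. Xpot, which exports tRNA from the nucleus, rose by 0.51 ± 0.10 and 0.94 ± 0.10. Sepsecs, which makes selenocysteine on its tRNA, and Yrdc, which modifies tRNA, rose at 6 h by 0.29 and 0.31. Tufm, the mitochondrial elongation factor that carries charged tRNA, fell by 0.47 ± 0.11 at 3 h and 0.73 ± 0.11 at 6 h. Aarsd1, a protein related to the editing domain of alanyl-tRNA synthetase, fell by 0.51 and 0.46, opposite to Aars. Tsen34, of the tRNA splicing endonuclease, fell by 0.52 and 0.51, and Tsen54 of the same enzyme by 0.44 at 3 h. Pstk and Trnau1ap, which act on selenocysteine tRNA, fell at 6 h by 0.71 and 0.51, and Prorsd1 by 0.46.

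With the actin and replicate terms, 0 genes of this list were called at 3 h, and at 6 h Xpot rose and Tsen34 and Tufm fell. Without the arrays numbered 2, Aarsd1 fell at 3 h, and at 6 h Xpot rose and Aarsd1, Pstk, Trnau1ap, Tsen34 and Tufm fell. Leaving out 1 array ended the 6 h calls of 3 genes. Prorsd1 was lost without any of the 3 MAZ1310 6 h arrays (adjusted p = 0.0737, 0.0721 and 0.0577, limma) and without HF 6 h replicate 1 (0.0848) or 2 (0.0949). Yrdc was lost without MAZ1310 6 h replicate 1 (0.0864) or 2 (0.0712) and without HF 6 h replicate 1 (0.0750) or 3 (0.0966). Sepsecs was lost without any of the 6 arrays of 6 h or HF 3 h replicate 3, with adjusted p from 0.0540 to 0.182.

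Whether the HF effect changed from 3 h to 6 h was tested directly. By limma, 0 of the 37 members were called, where 0.885% of all genes were called with a higher and 0.918% with a lower difference at 6 h, and 2 had an unadjusted p under 0.05. These were Rars (change 0.36 ± 0.15, adjusted p = 0.329) and Mars2 (0.46 ± 0.17, adjusted p = 0.219). With a replicate block Mars2 was called (adjusted p = 0.0466), its difference being -0.30 at 3 h and 0.16 at 6 h. For Aars the change was -0.06 with a 95% interval of -0.36 to 0.23, for Lars -0.14 (-0.45 to 0.16), for Sars 0.22 (-0.05 to 0.48) and for Tars 0.32 (-0.0042 to 0.65), so changes of the size of these intervals were not detectable with these arrays. A call of Rars at 6 h and not at 3 h is thus no shown difference between the times.

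Some members changed with time under either compound. From 3 h to 6 h with MAZ1310, 4 cytosolic genes rose and 1 fell, and 4 mitochondrial genes rose, where 12.1% of all genes rose and 7.64% fell. With HF, 4 cytosolic and 4 mitochondrial genes rose and 0 fell, where 8.33% of all genes rose and 7.27% fell. Here rose and fell mean higher and lower at 6 h than at 3 h.

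The scaffolds Aimp1 and Aimp2, which were not called between compounds, rose with time under both. Aimp1 had the largest rise of the 37 members with either compound. Aimp1 rose by 0.79 ± 0.13 with MAZ1310 and 0.75 ± 0.13 with HF (adjusted p = 0.000416 and 0.000824, limma). With MAZ1310 its arrays lay between 9.50 and 10.00 at 3 h and between 10.49 and 10.53 at 6 h, and with HF they went from 9.32 to 9.76 and from 10.16 to 10.45. Aimp2 rose by 0.35 ± 0.09 and 0.53 ± 0.09; the MAZ1310 call was lost without MAZ1310 6 h replicate 3 (adjusted p = 0.0560) and with the actin and replicate terms (0.0936). Mars1 rose by 0.55 ± 0.11 with MAZ1310 (adjusted p = 0.00232) and its difference was 0.24 ± 0.11 with HF. Tars fell by 0.44 ± 0.11 with MAZ1310 (adjusted p = 0.00758), and with HF its difference was -0.12 ± 0.11. The MAZ1310 call of Tars was lost with the actin and replicate terms (-0.30, adjusted p = 0.293).

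Farsb rose by 0.31 ± 0.09 with MAZ1310 and 0.29 ± 0.09 with HF, and Wars by 0.34 ± 0.10 with HF (adjusted p = 0.0224, 0.0410 and 0.0284, limma). None of these 3 calls was stable: that of Farsb with MAZ1310 was lost without MAZ1310 3 h replicate 1 (0.0933), MAZ1310 6 h replicate 1 (0.0754) or 3 (0.0650). That of Farsb with HF was lost in 9 of the 12 fits that left out 1 array, with adjusted p up to 0.192, and that of Wars without HF 3 h replicate 1 (0.119) or 3 (0.0926), or without HF 6 h replicate 1 (0.0883), 2 (0.0947) or 3 (0.0506).

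Among the mitochondrial enzymes, Rars2 rose by 0.58 ± 0.11 with MAZ1310 (adjusted p = 0.00173, limma) and 0.46 ± 0.11 with HF (adjusted p = 0.0105). Yars2 rose by 0.35 ± 0.12 and 0.60 ± 0.12, and Iars2 by 0.42 ± 0.13 and 0.44 ± 0.13. Lars2 rose by 0.29 ± 0.09 with MAZ1310, and Nars2 by 0.48 ± 0.13 with HF. The rises of Rars2 with MAZ1310 and Yars2 with HF were called in each fit that left out 1 array. The others were each lost in at least 2 of those fits, with adjusted p up to 0.0661 for Rars2 with HF, 0.163 for Yars2 with MAZ1310, 0.136 and 0.126 for Iars2, 0.113 for Lars2 and 0.0672 for Nars2. With the actin and replicate terms, the HF calls of Yars2 (0.41, adjusted p = 0.0799) and Rars2 (0.0740) were lost, and so were those of Yars2 with MAZ1310 (0.538), Iars2 with MAZ1310 (0.102) and HF (0.104), and Lars2 (0.0618). The same terms ended the calls of Farsb with MAZ1310 (0.0509) and HF (0.0797) and of Wars (0.0667). Without the arrays numbered 2, Rars2 with HF (0.0544), Iars2 with MAZ1310 (0.160) and HF (0.141), Lars2 (0.116), Farsb with MAZ1310 (0.125) and HF (0.166) and Wars (0.0678) were lost.

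**Figure D5:**
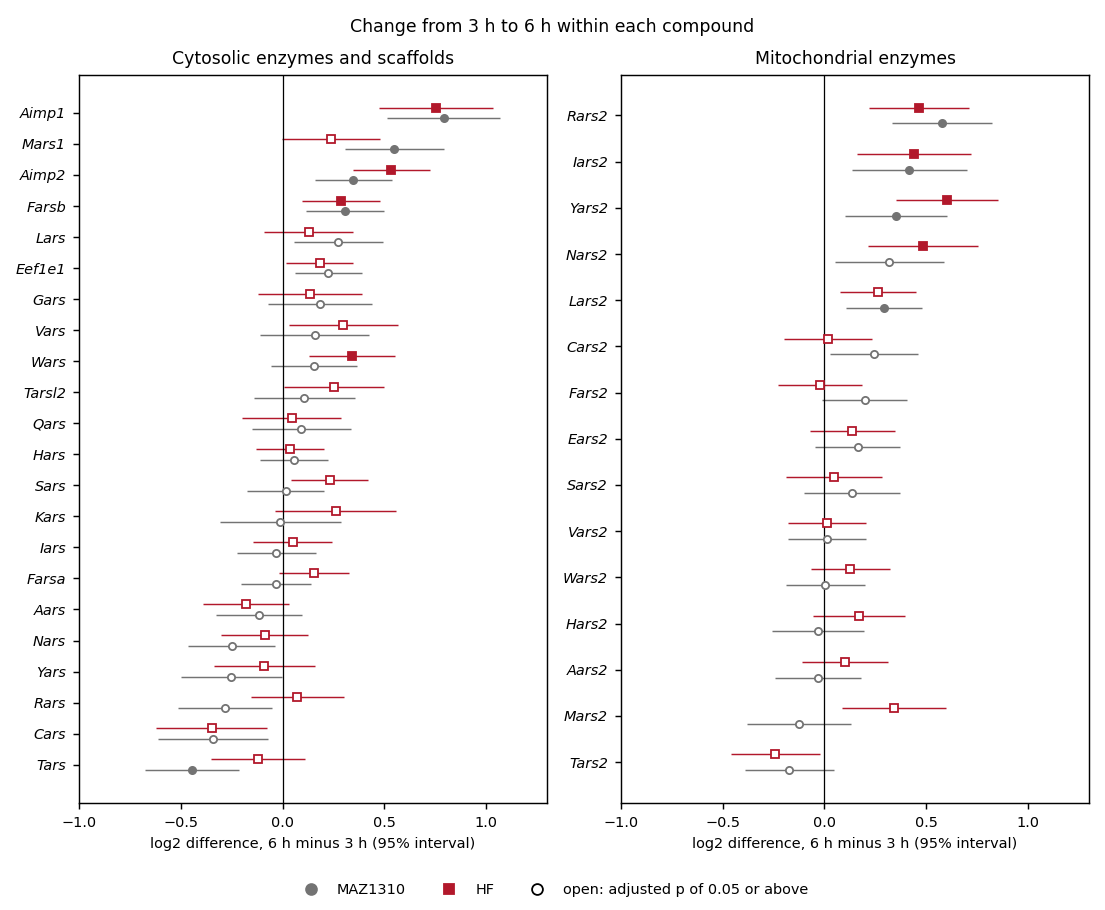
Difference between 6 h and 3 h (log2, horizontal axis) within MAZ1310 (grey circles) and within HF (red squares) for cytosolic genes (left) and mitochondrial genes (right), with bars for the 95% interval from limma and filled symbols for an adjusted p under 0.05. Aimp1 is the gene farthest to the right (0.79 and 0.75), and Tars with MAZ1310 is the only filled symbol to the left of 0 (-0.44).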

How the data were processed

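Total RNA of 12 samples was hybridised to Affymetrix arrays, 1 array per sample. The deposited values are probe set intensity on a linear scale, made by the authors with RMA, per the submitters' processing notes; its version, scan dates and a genome build were not given in the sources used here. RMA equalises the distributions of the arrays, so a shift of all transcripts would not appear, and folds of dim probe sets can be understated. No detection calls were used.

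Log2 was taken here. Of 45101 probe sets, 34945 carried 1 gene symbol, 932 several, 64 were controls and 9160 were not in the annotation table; 34741 of the first had a current Entrez identifier, and 0 changed symbol. The probe set of highest mean stood for each gene (18193 genes, 9010 with several probe sets). Levels of different genes were set side by side only for the array means and the brightness of cytosolic and mitochondrial enzymes. A model of 4 group means over the 12 arrays was run in limma 3.58.1 (lmFit, eBayes; R 4.3.3), with Benjamini-Hochberg adjustment over all genes; adjusted p-values are from limma, and intervals are 95%. The fit was tested on simulated data.

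The members, the gene lists, the motif and the rule for named genes were chosen with earlier results of these data known. Values of every array are given for the 10 cytosolic and 6 mitochondrial genes of largest mean absolute difference between compounds over both times. Of the other lists, called genes are named.

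The labels number the replicates without saying what a number shares. Between HF and MAZ1310 arrays with 1 number, correlations of the deviations from their group means were 0.242 to 0.381 (3 h) and 0.287 to 0.391 (6 h), all over 0.1, so the numbers were taken to pair these arrays. Between 3 h and 6 h arrays with 1 number, such correlations were 0.0289 (replicate 3) to 0.252 with MAZ1310 and 0.322 to 0.502 with HF. Not all of these were over 0.1. The replicate block spans both times, and the reported values come from the fit without it. Alternatives were the replicate block, cyclic loess, a filter on dim genes, other choices of probe set, an intensity trend, and each array left out in turn. Promoters are from RefSeq (GRCm38.p6).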

Additional observations from a re-analysis of the deposited data

How the results depend on the processing

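Over 185 gene-level results (37 genes in 5 comparisons) and 20 other settings, 3479 of 3670 values kept their direction and side of the threshold, 120 lost a call, 69 gained one and 2 reversed. The reversals came with probe sets without a suffix: Qars at 6 h against 3 h with HF gave -0.30 (adjusted p = 0.0180, limma; 0.04 as reported), and Farsb with MAZ1310 gave -0.063 (adjusted p = 0.811; 0.31 as reported); another probe set stood for each gene there. That setting left out Sars, Fars2, Tars2 and Yars2, and the filter on dim genes left out Tarsl2 and Mars2.

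The replicate block lost no call between compounds and added Mars1, Qars, Farsa and Mars2 at 3 h and Vars and Fars2 at 6 h. It made 9 calls among cytosolic genes for 6 h against 3 h with MAZ1310, where 5 were reported, and so did cyclic loess. It made 1 mitochondrial call for the change of the HF effect, where 0 were reported, and so did averaging the probe sets of each gene (Mars2 in both). Averaging also gave 1 mitochondrial call at 3 h, 4 at 6 h and 2 for 6 h against 3 h with HF, where 3, 2 and 4 were reported. Between compounds it lost Cars2 at 3 h and Ears2 at both times, and added Fars2, Hars2 and Mars2 at 6 h.

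With the actin difference added to the replicate block, cytosolic calls between compounds were 5 at 3 h and 7 at 6 h, where 10 and 11 were reported, and mitochondrial calls 0 and 1. Calls from 3 h to 6 h were then 2 with MAZ1310 and 2 with HF among cytosolic genes, and 2 and 1 among mitochondrial genes. Without the 4 arrays numbered 2, mitochondrial calls between compounds were 0 at 3 h and 1 at 6 h, cytosolic calls over time with HF were 2, and mitochondrial calls over time were 2 with each compound. The cause of these shifts was not tested; the last setting has fewer arrays.

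Leaving out 1 array gave 9 to 12 cytosolic calls at 3 h and 9 to 12 at 6 h, and 1 to 3 and 1 to 4 mitochondrial calls. Over time it gave 3 to 8 cytosolic and 1 to 6 mitochondrial calls with MAZ1310, and 2 to 6 and 1 to 5 with HF. The change of the HF effect gave 0 to 0 in both sets. The cytosolic minus mitochondrial median ranged from 0.32 to 0.49 at 3 h and 0.39 to 0.47 at 6 h. That median was 0.37 at 3 h with averaged probe sets and 0.36 without a suffix, and 0.48 at 6 h with the filter on dim genes, against 0.42 and 0.39 as reported.

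The number of arrays limits precision, and differences near the SE of about 0.1 could not be told from 0. Larger ones also went uncalled, such as -0.37 for Qars and 0.34 for Mars1 at 3 h (adjusted p = 0.0546 and 0.0762, limma). At 6 h the same held for Vars (0.34, adjusted p = 0.0831). A gene that was not called is thus not shown to be unchanged.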
